A study of Oryza sativa with 8 samples.

Results

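The comparison described here set the D6 control roots of rice (Oryza sativa) against the D4 control roots, with 2 libraries in each group. The loci compared were those with at least 1 FPKM (fragments per kilobase, scaled to the library total) in at least 2 of these 4 libraries, which held for 21971 of the 55801 loci in the table. The groups were D6_CK (root, treatment given as normal, D6), D4_CK (root, treatment given as normal, D4), and, for a later comparison, D6_100X and D4_100X (root, a carbon dot treatment called 100X, at D6 and at D4). Carbon dots are carbon particles of nanometre size, and the series concerns seed priming, in which seeds are treated before they are sown. The labels do not define D4, D6 or 100X and name no cultivar, age or growth condition, so D4 and D6 are used as names of 2 samplings. Nothing in the labels says that replicates came from separate plants or cultures. The p-values then reflect only how far these libraries differ from one another, which may be technical. Messenger RNA was enriched with oligo(dT) beads from whole roots, in which fewer cells of a type and less RNA per cell cannot be told apart.

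A cereal seedling root grows by division at the tip, elongation behind it and maturation further up. Elongating cells lay down a thin primary wall, and some tissues, such as xylem and sclerenchyma, later add a thick secondary wall made by other cellulose synthases. Mature root cells take up mineral ions through transporters of the epidermis, exodermis and endodermis. Rice roots also make diterpenoid phytoalexins, antimicrobial compounds that include the momilactones.

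The root label was compared with marker genes. All 6 listed root markers reached 1 FPKM in each control library, with a summed level of 2910.0 FPKM in both D6_CK libraries and of 3240.0 and 4090.0 FPKM in the D4_CK libraries. Of 9 photosynthetic shoot markers, 1 reached 1 FPKM in both libraries of either group, and their summed level was 6.04 to 8.46 FPKM at D6 and 7.63 to 9.9 FPKM at D4. The 6 seed markers summed to 2.86 to 3.4 FPKM at D6 and 3.13 to 3.55 FPKM at D4. The seed storage gene GLUA2 made up most of that sum, at 2.23 and 2.18 FPKM in D6_CK and 2.23 and 2.12 FPKM in D4_CK. The number of loci above 0 was 28619 to 30252 over the 8 libraries. The deposited values of the 8 libraries share one distribution. When each library's loci were ranked, the number behind the rank 10000 locus was 446 in all 8 libraries, and at 19998 of the 20000 highest ranks the libraries differed by at most 5%. Changes are therefore positions within a distribution that was made equal, the sequencing depth is unknown, and a shift of all genes together could not be seen.

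At D6 the control roots had 1219 loci that rose and 1071 that fell against D4, as limma called them at a Benjamini-Hochberg adjusted p under 0.05 (2290 in all, 10.4% of the members, 5.55% higher and 4.87% lower). At an unadjusted p under 0.05 there were 6204. The loci that rose had a median log2 fold change of 1.04 and a largest one of 4.04, and 646 of them rose by at least 1 on the log2 scale. Those that fell did so by a median of 0.773 and by at most 3.42, and 327 fell by at least 1. All fold changes are D6 minus D4 on log2(FPKM + 1), which understates the change of low genes. Over all members the median was -0.05, and 5% of the members were below -0.705 and 5% above 0.943. In all, 353 loci at least 1 higher and 170 at least 1 lower did not pass the test. The D6 and D4 values of 13132 loci (59.8%) did not overlap, with 5581 higher (25.4%) and 7551 lower (34.4%), and all 2290 called loci were among them.

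**Figure D1:**
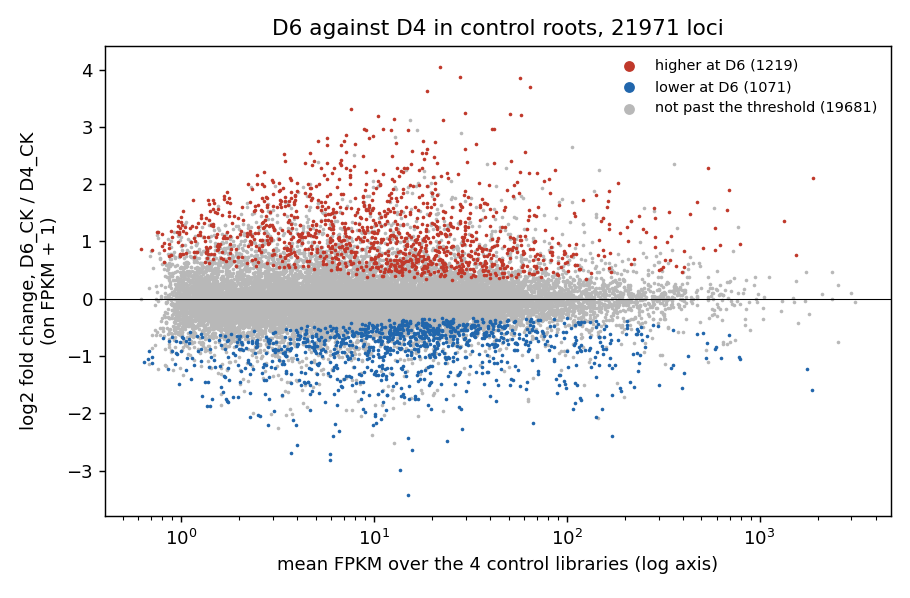
Log2 fold change of D6_CK over D4_CK (on FPKM + 1, vertical axis) against the mean FPKM of the 4 control libraries (horizontal log axis), 1 point per locus for 21971 loci. The 1219 loci that rose and the 1071 that fell are coloured, and the highest point, at 4.04, lies further from 0 than the lowest, at -3.42.

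The share of loci that fell was higher among abundant genes. Of the 1059 members with a mean of at least 100 FPKM, 10% fell and 6.61% rose, whereas of the 4462 members under 3 FPKM 2.78% fell and 4.53% rose. Between 10 and 30 FPKM the shares were close, with 5.83% lower and 6.0% higher. Few loci were switched on or off at these levels. Only 2 loci had at least 1 FPKM in both D6_CK libraries and at most 0.1 FPKM in both D4_CK libraries, and 5 had the reverse pattern.

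The D4 libraries were less alike than the D6 libraries. The median absolute difference between replicates was 0.122 (log2) at D6 and 0.194 at D4. A difference of at least 1 between the replicates was found at 219 loci at D6 and at 664 at D4, and at 496 of these 664 replicate 2 was the higher one. Of the 2290 called loci, D4_CK replicate 2 was the one closer to the D6 mean at 834 that rose and 637 that fell. The same-numbered D4 libraries of the control and carbon dot groups deviated together (r = 0.61 across the 21971 loci, which are not independent replicates), so the difference between the D4 replicates was not particular to the control samples.

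Leaving out 1 control library at a time lowered the number of calls. There were 60 without D6_CK replicate 1, 642 without D6_CK replicate 2, 369 without D4_CK replicate 1 and 1407 without D4_CK replicate 2. Without 1 of the D6_100X libraries, which share in the estimate of the spread, 1125 or 1133 remained as a total, and without 1 of the D4_100X libraries 2879 or 2885. Of the 2290 loci, 54 were called in all 4 fits that left out a control library (26 higher and 28 lower), and 1015 were called in none of the 4. None of the 40 named genes called below was among the 54. BC1, NRAMP1 and HKT1 kept their call in 3 of the 4 fits.

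**Figure D2:**
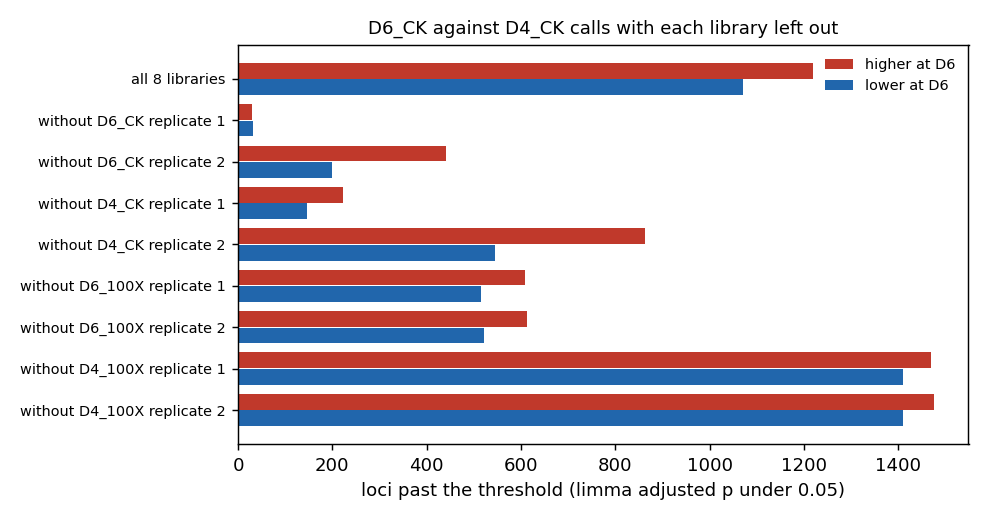
Number of loci called higher or lower at D6 in control roots (horizontal axis) with all 8 libraries and with each library left out in turn (vertical axis). All bars start at 0, and the shortest pair, 60 calls in all, belongs to the fit without D6_CK replicate 1.

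The members with a known function were described by lists. The counts of each list are to be read against the 5.55% of all members that rose and the 4.87% that fell, and its median against -0.05. The lists and the members were chosen with earlier results of these data known.

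**Figure D3:**
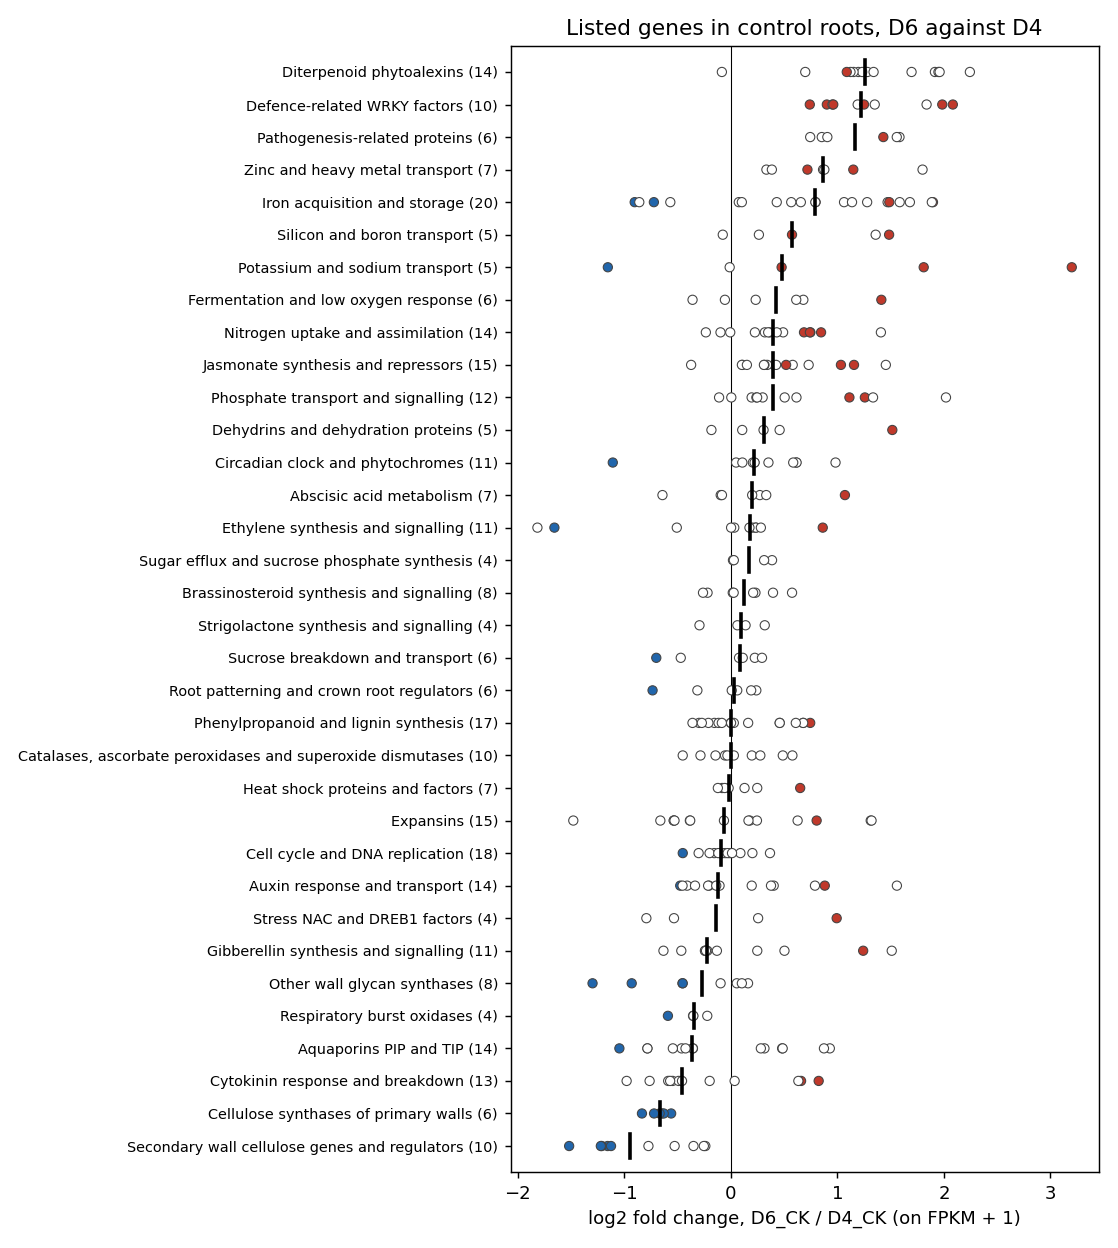
Log2 fold change of D6_CK over D4_CK (on FPKM + 1, horizontal axis) of each measured gene in 34 lists, ordered by median (black bar), with the number of measured genes in brackets. Filled points passed limma's adjusted threshold, red for higher and blue for lower at D6, and open points did not. Both cellulose lists lie wholly below 0, while the zinc, WRKY and pathogenesis-related lists lie wholly above it.

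Genes that build cellulose, the main load-bearing polymer of the wall, fell at D6. All 6 primary wall synthases did so, with log2 fold changes from -0.83 to -0.56 and a median of -0.66. CESA8 stood at 186 and 185 FPKM in the D6 controls, against 306 and 306 FPKM in the D4 controls. CESA1 was at 199 and 206 FPKM at D6, against 299.9 and 336 FPKM at D4. Every D6 value was below every D4 value in all 6 genes, as in every called locus that fell and in 34.4% of all members. The replicates of CESA8 lay close together, and both D4_CK libraries and D4_100X replicate 1 had the same 306 FPKM. In values made equal by rank, such a tie can come from an equal rank. This closeness may therefore understate the spread. The log2 fold change was -0.72 ± 0.09 (SE, n = 2 libraries per group) for CESA8 and -0.65 ± 0.10 for CESA1 (limma adjusted p = 0.00867 and 0.0148). CESA5 fell by 0.63, CESA6 by 0.67, CESA3 by 0.56 and CESA2, the least abundant at 6.43 and 6.89 against 11.4 and 13.98 FPKM, by 0.83. Leaving out a D6_CK library kept 0 of the 6 calls, and leaving out a D4_CK library kept 3.

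The secondary wall list held 10 measured genes, and 5 of them fell, 0 rose and all 10 had negative fold changes (median -0.95). CESA4, CESA7 and CESA9 encode the secondary wall synthase subunits. CESA7 was at 93.7 and 113 FPKM in D6_CK and at 268 and 215 FPKM in D4_CK. CESA4 had 83.8 and 96.6 FPKM at D6 and 223 and 183 FPKM at D4. CESA9 had 79.1 and 94.3 FPKM at D6, against 210.2 and 171 FPKM at D4. The 3 genes stood in the same order in each of the 4 control libraries, CESA7 above CESA4 above CESA9, and replicate 1 was the higher D4 library in each. BC1, a COBRA-like protein gene needed for secondary wall cellulose, had the largest fall of the list, with 26.1 and 32.6 FPKM at D6, against 91.0 and 80.0 FPKM at D4 (-1.52 ± 0.17, limma adjusted p = 0.00749, and 0.0203 to 0.063 with 1 control library left out). With D6_CK replicate 1 left out the list had 0 calls, and it had 2 without D6_CK replicate 2, 2 without D4_CK replicate 1 and 3 without D4_CK replicate 2.

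Other glycans of the wall were measured by 8 genes, of which 3 fell and 0 rose (median -0.27). CSLF6, which makes the mixed-linkage glucan typical of grasses, had 97.4 and 100.5 FPKM at D6 and 179 and 200.2 FPKM at D4 (-0.93 ± 0.15, limma adjusted p = 0.0182). IRX9, a xylan synthesis gene, stood at 2.15 and 2.04 FPKM at D6, against 5.68 and 7.67 FPKM at D4 (-1.30 ± 0.18, limma adjusted p = 0.0127). The groups were apart in both genes, as in every called locus. IRX14, a more abundant xylan synthesis gene, had 152 and 163 FPKM at D6 and 230.1 and 203 FPKM at D4 but did not pass (adjusted p = 0.0699). The CSLD genes showed no call. CSLD1, tied to root hairs, was at 11.3 and 11.4 FPKM at D6 and at 5.13 and 18.8 FPKM at D4. Its D6 values thus lay between the D4 replicates. The list had 1 call without either D4_CK library and 0 without either D6_CK library.

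Of 17 phenylpropanoid and lignin genes, 1 rose and 0 fell, with a median of 0.00. The methyltransferase gene COMT1 stood at 1176 and 1211 FPKM at D6 and at 1430.0 and 1334 FPKM at D4 (-0.21 ± 0.13, limma adjusted p = 0.339). The most abundant gene of the list, ZB8, encodes a phenylalanine ammonia-lyase, and its values of 2382 and 2381 FPKM at D6 and 2382 and 2382 FPKM at D4 were set by its rank, so no difference could be measured there.

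Expansins loosen the wall so that it can stretch. Among 15 measured genes 1 rose, 0 fell and the median was -0.06, with single values from -1.48 to 1.32. EXPB7 had 239 and 189.5 FPKM in D6_CK and 118 and 125 FPKM in D4_CK (0.81 ± 0.15, limma adjusted p = 0.0227). Of the fits that left out a control library, it kept this call only in the one without D6_CK replicate 2. EXPB3 had the lowest fold change and did not pass, with 91.4 and 93.0 FPKM at D6, against 351 and 190.3 FPKM at D4 (-1.48 ± 0.37, adjusted p = 0.0531, and 0.0446 to 0.236 with 1 control library left out). EXPB6, the most abundant expansin, was at 189.4 and 162 FPKM at D6 and at 249 and 257 FPKM at D4 (adjusted p = 0.0722). EXPB4, next to EXPB3 on chromosome 10, had 174 and 170.5 FPKM at D6 and 185 and 176 FPKM at D4.

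**Figure D4:**
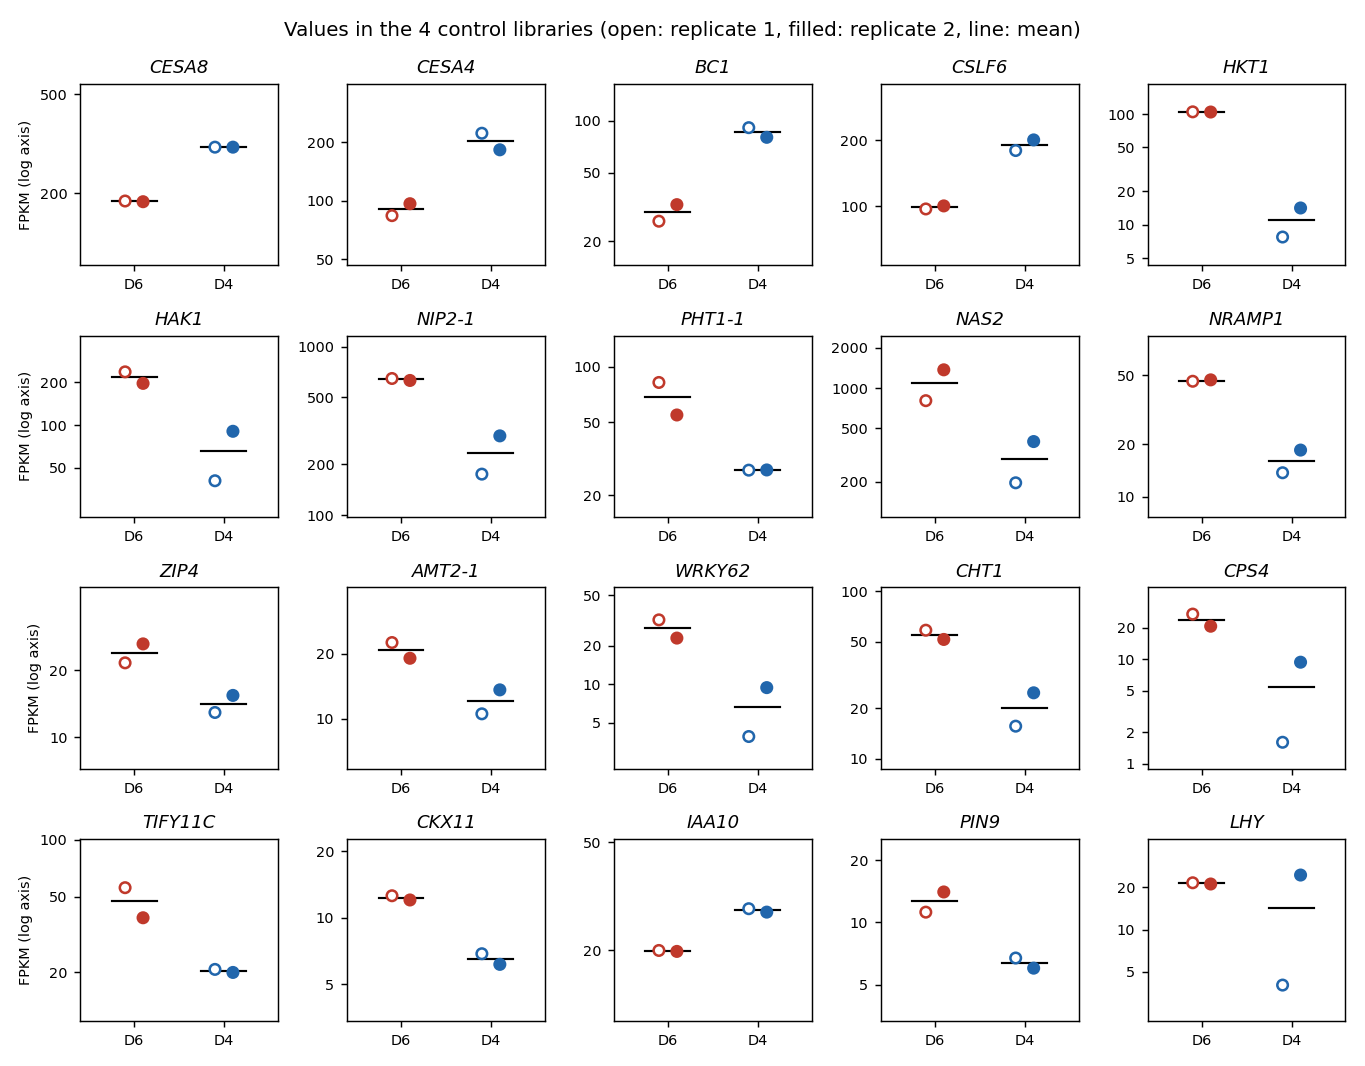
FPKM (vertical log axes, 1 panel per gene) of 20 genes in the control libraries, D6 left of D4, with replicate 1 as an open point, replicate 2 as a filled point and the group mean as a line. The cellulose genes, CSLF6 and IAA10 are lower at D6, the transport and defence genes are higher, and the D4 replicates of LHY lie far apart while its D6 replicates coincide.

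Several ion transporters rose. In the potassium and sodium list 3 of 5 measured genes rose and 1, without a checked name, fell. HKT1, a transporter of sodium and potassium, had 105 and 105 FPKM at D6, against 7.74 and 14.2 FPKM at D4. HAK1, the high-affinity potassium transporter, had 237 and 196 FPKM at D6 and 40.7 and 90.5 FPKM at D4. AKT1, an inward potassium channel, had 48.7 and 43.1 FPKM at D6 and 32.8 and 32.5 FPKM at D4. The 3 genes were higher in both D6 libraries than in either D4 library, as was every locus called higher. The step was the largest in HKT1. Its log2 fold change was 3.2 ± 0.31 (limma adjusted p = 0.00652, and 0.0132 to 0.0553 with 1 control library left out), against 1.81 ± 0.36 for HAK1 and 0.48 ± 0.10 for AKT1. The call of HAK1 was kept in 1 of those 4 fits and that of AKT1 in 0.

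Silicon and boron transport was represented by 5 genes, of which 2 rose and 0 fell. NIP2-1, the silicic acid influx channel of the root, had 648 and 631 FPKM in D6_CK, against 175 and 296 FPKM in D4_CK (1.49 ± 0.27, limma adjusted p = 0.0223, and 0.0183 to 0.143 with 1 control library left out). LSI2, the efflux transporter that works with it, had 297 and 316 FPKM at D6 and 89.9 and 157 FPKM at D4, a difference of similar size that did not pass (1.36 ± 0.35, adjusted p = 0.0586). NIP3-1, a boric acid channel, had 83.3 and 81.9 FPKM at D6 and 51.7 and 58.8 FPKM at D4 and passed (0.57 ± 0.11, adjusted p = 0.0295). NIP2-2, another silicon channel, overlapped between the groups, with 62.2 and 74.6 FPKM at D6 inside the D4 values of 43.4 and 118 FPKM. The 2 calls of the list were lost in each fit that dropped a control library other than D4_CK replicate 2.

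Phosphate genes had a median of 0.40, with 2 of 12 higher, 0 lower and 11 fold changes above 0. PHT1-1, a phosphate transporter of the root, stood at 82.1 and 54.7 FPKM at D6 and at 27.4 and 27.5 FPKM at D4 (1.26 ± 0.18, limma adjusted p = 0.0125). SPX2, a sensor protein of phosphate status, had 6.18 and 6.92 FPKM at D6 and 2.06 and 2.97 FPKM at D4 (1.11 ± 0.24, limma adjusted p = 0.0359). As in every called locus, the groups of both genes were apart. PHT1-8, the most abundant transporter of the list, had 155 and 139.9 FPKM at D6 and 40.8 and 81.5 FPKM at D4 (adjusted p = 0.0516). PHT1-4 had 33.2 and 20.8 FPKM at D6 and 2.75 and 11.1 FPKM at D4 (adjusted p = 0.0624). Their D4 replicates lay far apart. The list had 0 calls without D6_CK replicate 1, 1 without D6_CK replicate 2, 0 without D4_CK replicate 1 and 3 without D4_CK replicate 2. PHO1-2, a phosphate exporter of the root, was at 81.5 and 97.2 FPKM at D6 and 77.8 and 77.4 FPKM at D4 and did not pass. PHR1 and PHR2, the factors that SPX proteins bind, had 15.7 and 17.5 FPKM and 16.3 and 16.86 FPKM at D6, against 18.2 and 17.8 FPKM and 16.86 and 16.2 FPKM at D4.

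Of 14 nitrogen genes 3 rose and 0 fell, again with a median of 0.40. The named call was AMT2-1, an ammonium transporter gene, at 22.5 and 19.0 FPKM in D6_CK and 10.52 and 13.6 FPKM in D4_CK (0.74 ± 0.15, limma adjusted p = 0.032). GLN1-1 and GLN1-2 encode cytosolic glutamine synthetases. GLN1-1 was level, at 556 and 523 FPKM at D6 and 526 and 556 FPKM at D4. GLN1-2 had 225 and 216 FPKM at D6, against 55.0 and 123 FPKM at D4, a larger difference (1.41 ± 0.42) that did not pass (adjusted p = 0.0821, and 0.0397 to 0.306 with 1 control library left out). The list had 4 calls without D4_CK replicate 2 and 0 in each of the other 3 fits that left out a control library.

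The iron list had a median of 0.79 over 20 genes, with 3 higher and 2 lower. Grasses take up iron with phytosiderophores, which are made from nicotianamine. NAS2, a nicotianamine synthase gene, had 805 and 1366 FPKM at D6 and 197 and 400 FPKM at D4 (1.90 ± 0.46, limma adjusted p = 0.048). Its neighbour NAS1 had 688 and 1046 FPKM at D6 and 205 and 387 FPKM at D4 (adjusted p = 0.0532). These genes are near-identical and may share reads, so their values are uncertain as single genes. NRAMP1, a metal transporter gene, was the steadier call, with 46.1 and 47.0 FPKM at D6 and 13.7 and 18.5 FPKM at D4 (1.49 ± 0.18, limma adjusted p = 0.009, and 0.0165 to 0.0768 with 1 control library left out). Its neighbour on chromosome 7, NRAMP5, the manganese and cadmium uptake transporter, had 19.9 and 24.5 FPKM at D6, inside the D4 values of 14.1 and 29.6 FPKM. NAAT1, the aminotransferase of phytosiderophore synthesis, had 196 and 232 FPKM at D6 and 37.5 and 86.0 FPKM at D4 (adjusted p = 0.0534), and YSL15, which takes up the iron complex, overlapped between the groups at 64.2 and 108 against 19.9 and 76.4 FPKM. The list had 0 calls without D6_CK replicate 1, 3 without D6_CK replicate 2, 1 without D4_CK replicate 1 and 7 without D4_CK replicate 2.

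All 7 measured zinc and heavy metal transport genes had positive fold changes (median 0.87), and 2 passed. ZIP4 had 21.7 and 26.4 FPKM at D6 and 12.9 and 15.4 FPKM at D4 (0.72 ± 0.16, limma adjusted p = 0.0401). ZIP8 had 12.0 and 8.21 FPKM at D6 and 2.89 and 5.23 FPKM at D4 (1.15 ± 0.28, limma adjusted p = 0.0478). ZIP proteins carry zinc and related metals into the cytosol, and the groups were apart in both genes, as in every called locus. ZIP9 had the largest fold change of the list, at 12.4 and 17.3 FPKM at D6 and 1.84 and 6.12 FPKM at D4, and did not pass (adjusted p = 0.0792). The pump genes HMA9 and HMA2 were the most abundant, and HMA2 overlapped between the groups, with 28.3 and 35.4 FPKM at D6 and 21.3 and 29.0 FPKM at D4, while HMA9 had 85.1 and 81.8 FPKM at D6 and 62.7 and 64.6 FPKM at D4 (adjusted p = 0.06). In all 7 genes D4_CK replicate 2 was above replicate 1 and nearer to the D6 mean. ZIP4 lost its call in each fit that left out a control library. ZIP8 kept its call only in the fit without D4_CK replicate 2.

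Aquaporins, which carry water across membranes, had a median of -0.36 over 14 genes, with 0 higher and 1 lower. TIP2-1, a channel of the vacuole membrane, had 491 and 546 FPKM in D6_CK, against 1033 and 1109 FPKM in D4_CK (-1.05 ± 0.20, limma adjusted p = 0.026). This call was lost in each fit that left out a control library (adjusted p of 0.0805 to 0.173). PIP1-2, the most abundant plasma membrane aquaporin, had 1806 and 1617 FPKM at D6 and 1183 and 1593 FPKM at D4, and TIP1-1 had 1396 and 1309 FPKM at D6 and 1581 and 2084 FPKM at D4. Neither passed (adjusted p = 0.426 and 0.258), and in 13 of the 14 genes D4_CK replicate 2 was above replicate 1.

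Of 10 defence-related WRKY transcription factors, 6 rose and 0 fell, all 10 had positive fold changes (0.74 to 2.08, median 1.22) and the groups did not overlap in any of the 10, where 25.4% of all members were higher without overlap. The named call was WRKY62, at 32.1 and 23.1 FPKM at D6 and 3.89 and 9.42 FPKM at D4 (1.98 ± 0.41, limma adjusted p = 0.0317, and 0.0249 to 0.191 with 1 control library left out). WRKY71, the most abundant of the named ones, had 51.5 and 40.9 FPKM at D6 and 27.8 and 19.3 FPKM at D4 (adjusted p = 0.0509). WRKY76, next to WRKY62 on chromosome 9, had 27.4 and 20.6 FPKM at D6 and 2.66 and 12.1 FPKM at D4 (adjusted p = 0.133). The D4 replicates of WRKY76 were further apart than its replicates at D6. With D6_CK replicate 1 left out 0 of the list were called, and 1 was without D6_CK replicate 2, 2 without D4_CK replicate 1 and 3 without D4_CK replicate 2.

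The 6 pathogenesis-related genes also had positive fold changes throughout (0.75 to 1.58, median 1.17), and 1 passed. CHT1, a chitinase gene, stood at 58.5 and 51.5 FPKM at D6, against 15.7 and 24.8 FPKM at D4 (1.43 ± 0.27, limma adjusted p = 0.0253). PBZ1, a PR10 family gene, had 63.1 and 59.7 FPKM at D6 and 22.2 and 58.8 FPKM at D4 (adjusted p = 0.311). In PBZ1 the second D4 library was near the D6 level, and its adjusted p was 0.0444 without that library and 0.491 to 0.93 without 1 of the other control libraries. D4_CK replicate 2 was above replicate 1 and nearer to the D6 mean in all 6 genes of the list. Without it 3 genes were called, and 0 were without any other control library.

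Diterpenoid phytoalexin genes had the highest median of the functional lists, 1.26 over 14 genes with 13 above 0, and yet 1 passed, a locus without a checked name. CPS4 makes an early intermediate of the momilactones, and it had 26.95 and 20.6 FPKM in D6_CK and 1.61 and 9.35 FPKM in D4_CK. CYP99A3 had 23.6 and 17.37 FPKM at D6 and 2.21 and 8.44 FPKM at D4, and MAS, the momilactone synthase gene, had 22.1 and 15.4 FPKM at D6 and 3.21 and 7.56 FPKM at D4. In these 3 genes of the chromosome 4 cluster the D6 values lay above both D4 values, as in 25.4% of all members. Their limma adjusted p-values were 0.0691, 0.0736 and 0.051. D4_CK replicate 2 was above replicate 1 in all 14 genes and nearer to the D6 mean in 13 of them. Without D4_CK replicate 2 the median of the list was 2.06, so the size of the rise depended on which D4 library was used. Against D4_CK replicate 2 alone it was smaller in most genes. CYP99A2, for instance, had 10.96 and 9.59 FPKM at D6, against 1.46 and 8.31 FPKM in D4_CK replicates 1 and 2. KSL7 had 3.85 and 5.07 FPKM at D6, against 0.39 and 3.03 FPKM at D4. Without D4_CK replicate 1, D6_CK replicate 1 and D6_CK replicate 2 the calls numbered 1, 0 and 1.

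The jasmonate list had a median of 0.40 over 15 genes, 14 above 0, with 3 higher and 0 lower. TIFY11C and TIFY11D encode JAZ proteins, which repress the jasmonate response and are themselves induced by it. TIFY11C had 55.9 and 38.8 FPKM at D6 and 20.7 and 19.99 FPKM at D4 (1.16 ± 0.19, limma adjusted p = 0.0178). TIFY11D had 29.3 and 20.1 FPKM at D6 and 11.4 and 11.3 FPKM at D4 (1.03 ± 0.20, limma adjusted p = 0.0285). Here the D4 libraries were close to each other and D6 replicate 1 was the highest. TIFY10B, the most abundant, had 219.5 and 199 FPKM at D6 and 169 and 161 FPKM at D4 (adjusted p = 0.127), and the synthesis gene OPR7 overlapped, with 87.1 and 77.8 FPKM at D6 and 72.2 and 81.1 FPKM at D4. AOS2, an allene oxide synthase gene, had 5.56 and 4.26 FPKM at D6 and 0.324 and 2.47 FPKM at D4 (adjusted p = 0.103). Of the fits that left out a control library, TIFY11C and TIFY11D kept their calls only in the one without D6_CK replicate 2. Without D4_CK replicate 2 both were lost, and AOS2 was called higher and TIFY11E lower instead. The D6 values of TIFY11E lay between its D4 replicates, with D4_CK replicate 1 the higher one, so its direction depended on which D4 library was used.

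Among 10 catalases, ascorbate peroxidases and superoxide dismutases 0 passed, with a median of 0.00. The catalase gene CATA had 733 and 686 FPKM at D6 and 923 and 1020.0 FPKM at D4 (adjusted p = 0.139), and APX1 had 555 and 605 FPKM at D6 and 626 and 655 FPKM at D4 (adjusted p = 0.448). All 4 measured respiratory burst oxidases, which make superoxide at the cell surface, had negative fold changes, and 1 without a checked name fell. RBOHB had 42.3 and 40.7 FPKM at D6 and 49.3 and 57.6 FPKM at D4 (-0.35 ± 0.11, limma adjusted p = 0.0956).

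In the cytokinin list, with a median of -0.46 over 13 genes, 2 rose, and both encode oxidases that break cytokinin down. CKX11 had 12.6 and 12.0 FPKM at D6 and 6.87 and 6.15 FPKM at D4 (0.82 ± 0.13, limma adjusted p = 0.0148). CKX5 had 6.31 and 5.38 FPKM at D6 and 3.35 and 3.30 FPKM at D4 (0.66 ± 0.13, limma adjusted p = 0.0281). The type-A response regulators, which cytokinin induces, had negative fold changes without a call. RR2 was at 29.4 and 30.3 FPKM in D6_CK and 45.4 and 42.8 FPKM in D4_CK (adjusted p = 0.0689), RR4 at 29.2 and 29.9 FPKM against 41.9 and 40.4 FPKM (adjusted p = 0.124), and RR10 at 12.0 and 13.0 FPKM against 20.3 and 32.0 FPKM (adjusted p = 0.122). In each the groups were apart, as in the 34.4% of all members that were lower without overlap. The calls of CKX11 and CKX5 were lost in most fits that left out a control library.

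Auxin genes were split, with 1 of 14 higher and 1 lower. IAA10, an Aux/IAA repressor gene, stood at 19.98 and 19.8 FPKM at D6 and at 28.5 and 27.6 FPKM at D4 (-0.47 ± 0.08, limma adjusted p = 0.0203). PIN9, an auxin efflux carrier gene of monocots, had 11.2 and 14.04 FPKM at D6 and 6.72 and 6.003 FPKM at D4 (0.88 ± 0.21, limma adjusted p = 0.0454). Both groups were tight in IAA10, and both calls were lost in each fit without a control library (adjusted p of 0.0537 to 0.135 and 0.13 to 0.193). The abundant repressor genes IAA13 and IAA31 had 221 and 209 FPKM and 85.9 and 87.0 FPKM at D6, against 253 and 291 FPKM and 113 and 125 FPKM at D4, and did not pass. GH3.2, which conjugates auxin to amino acids, had 54.2 and 63.1 FPKM at D6 and 8.43 and 42.3 FPKM at D4, a further gene whose D4 replicates stood far apart.

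Gibberellin genes had 1 call upwards among 11, ethylene genes 1 upwards and 1 downwards among 11, abscisic acid genes 1 upwards among 7, and brassinosteroid and strigolactone genes 0 among 8 and 4. None of these calls had a checked name. None of the members named next passed. SLR1, the DELLA repressor of gibberellin signalling, had 79.4 and 83.5 FPKM at D6 and 88.8 and 89.7 FPKM at D4. The F-box gene GID2 had 102 and 96.7 FPKM at D6 and 108 and 127 FPKM at D4. ERS1, an ethylene receptor gene, had 42.5 and 43.6 FPKM at D6, within its D4 values of 40.4 and 43.8 FPKM. EIL1, a transcription factor gene of ethylene signalling, had 50.1 and 48.9 FPKM at D6 and 38.3 and 49.9 FPKM at D4. D14, the strigolactone receptor gene, was higher in both D6 libraries, at 69.2 and 67.2 against 51.7 and 57.4 FPKM, as were 25.4% of all members. Its limma adjusted p was 0.0844. D3, the partner of D14, had 8.66 and 9.41 FPKM at D6 and 7.71 and 8.52 FPKM at D4. The brassinosteroid genes BZR1 and GSK2 had log2 fold changes of 0.23 and -0.26, and the abscisic acid hydroxylase genes CYP707A5 and CYP707A6 had -0.09 and -0.64.

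Of 18 cell division genes 1 fell and 0 rose, and the median was -0.09. The D6 and D4 values did not overlap in 6 of the 18, against 59.8% of all members. PCNA, the sliding clamp of DNA replication, had 82.3 and 84.4 FPKM at D6 and 77.8 and 67.2 FPKM at D4 (adjusted p = 0.232). The mitotic kinase gene CDKB2-1 had 51.4 and 50.3 FPKM at D6, between its D4 values of 61.5 and 48.1 FPKM. CDKA-2, a cyclin-dependent kinase gene, fell, at 14.6 and 15.2 FPKM against 19.9 and 21.6 FPKM (-0.45 ± 0.11, limma adjusted p = 0.0492), and this call was lost without any 1 control library (adjusted p of 0.121 to 0.248). The 6 MCM helicase genes, from MCM2 at 21.1 and 23.5 against 23.8 and 21.1 FPKM to MCM7 at 10.1 and 11.6 against 11.9 and 11.04 FPKM, had no call. Of 6 root patterning genes 1 without a checked name fell, and SHR1 and SCR2 had log2 fold changes of 0.01 and 0.19.

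Among stress genes, NAC048, a NAC transcription factor gene, rose. It had 100.1 and 81.3 FPKM in D6_CK and 43.8 and 45.9 FPKM in D4_CK (0.99 ± 0.14, limma adjusted p = 0.012, and 0.0328 to 0.0876 with 1 control library left out). The cold-response factors DREB1A and DREB1B had no call, with D4_CK replicate 1 at 9.64 and 7.88 FPKM and the other 3 control libraries at 2.03 to 3.30 FPKM. The small heat shock gene HSP17.9A rose slightly, to 7.23 and 6.46 FPKM at D6, against 4.18 and 3.803 FPKM at D4 (0.65 ± 0.14, limma adjusted p = 0.0347). It was the single call among 7 heat shock genes and was lost in each fit that left out a control library. The more abundant HSP17.7 and the heat shock factor gene HSFA2E had log2 fold changes of -0.08 and 0.25 and did not pass. Of 5 dehydrin and dehydration genes 1 without a checked name rose, DHN1 had 92.2 and 87.5 FPKM at D6 and 112 and 93.0 FPKM at D4, and SALT had 381 and 262 FPKM at D6 and 253 and 208 FPKM at D4.

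In carbon metabolism, ADH2, an alcohol dehydrogenase gene of fermentation, rose to 361 and 469 FPKM at D6, against 129 and 184 FPKM at D4 (1.41 ± 0.28, limma adjusted p = 0.0277). It was the single call among 6 genes. Its neighbour ADH1 overlapped between the groups, with 63.8 and 84.7 FPKM at D6 and 90.3 and 64.7 FPKM at D4, and PDC2, the pyruvate decarboxylase gene, had 246 and 294 FPKM at D6 and 171 and 179.7 FPKM at D4 (adjusted p = 0.194). CIN1, a cell wall invertase gene, was the single call among 6 sucrose genes and fell, at 48.5 and 41.1 FPKM in D6_CK and 66.9 and 80.0 FPKM in D4_CK (-0.70 ± 0.14, limma adjusted p = 0.0311). The sucrose synthase gene SUS1, with 1048 and 976 FPKM at D6 and 976 and 942 FPKM at D4, did not pass, and nor did SUS2. Among 4 genes of sugar efflux and sucrose phosphate synthesis there was no call, and SWEET4 and SWEET14 had log2 fold changes of 0.02 and 0.39. The calls of ADH2 and CIN1 were kept in 1 and 0 of the 4 fits without a control library. The reference genes ACT1 and REFA1 had log2 fold changes of -0.20 and 0.07 (limma adjusted p = 0.274 and 0.859).

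Clock genes follow the hour of the day. Of 11 clock and phytochrome genes 1 fell and 0 rose. PHYC, a phytochrome gene, fell to 2.29 and 2.95 FPKM at D6, against 6.48 and 7.08 FPKM at D4 (-1.11 ± 0.17, limma adjusted p = 0.0148). Of the fits that left out a control library, it kept this call only in the one without D6_CK replicate 2. LHY, a morning-phased clock factor, had 21.6 and 21.1 FPKM at D6 and 4.02 and 24.5 FPKM at D4. D4_CK replicate 1 was thus alone at the low level, while D4_CK replicate 2 stood with the D6 libraries. In the carbon dot roots LHY had 32.8 and 29.2 FPKM at D6 and 4.44 and 21.0 FPKM at D4, with the first D4 library again the low one. GI, another clock gene, had 219 and 208 FPKM in D6_CK and 159 and 127 FPKM in D4_CK (adjusted p = 0.118), and PRR73 had 39.4 and 45.1 FPKM at D6 and 21.9 and 33.8 FPKM at D4 (adjusted p = 0.112). The hour of sampling is not given in the sources used here, and its part in the differences between D6 and D4 was not tested.

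The loci with the largest changes had no checked name, as names were sought only for listed loci. LOC_Os01g71860 had 51.2 and 33.5 FPKM at D6, against 0.809 and 2.69 FPKM at D4 (4.04 ± 0.55, limma adjusted p = 0.0115). LOC_Os10g39260 had 81.5 and 25.3 FPKM at D6, against 1.04 and 3.93 FPKM at D4. LOC_Os06g32160 fell to 2.79 and 0.965 FPKM at D6, against 28.6 and 27.9 FPKM at D4. LOC_Os11g05450 fell to 2.75 and 1.84 FPKM at D6, against 23.5 and 26.5 FPKM at D4 (-2.99 ± 0.28, limma adjusted p = 0.00652). In the 2 loci that rose the replicates of each group differed widely, and the groups did not overlap, as in every called locus.

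Called loci were spread over all 12 chromosomes. The share that rose was between 4.73% on chromosome 2 and 7.15% on chromosome 10, and the share that fell between 4.04% on chromosome 4 and 5.95% on chromosome 7. Runs of at least 3 neighbouring members that rose numbered 18, and runs that fell 13. The 2 longest runs held 6 neighbours each, and all fell. One, on chromosome 6, had a median log2 fold change of -2.48 and spans LOC_Os06g32160, and the other, on chromosome 7, had a median of -1.84. Neighbours in a run can be copies that share reads.

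The same contrast was then made in the carbon dot roots, where D6_100X and D4_100X share no library with the controls. Both contrasts used a common estimate of the spread at each locus, taken from all 8 libraries. A small spread favours a call in both, so the overlap of the calls is not that of separate tests. Of the 1219 loci that rose in controls, 1108 (90.9%) also rose in carbon dot roots, and of the 1071 that fell, 989 (92.3%) also fell there. The reverse shares were smaller, since 35.1% of the 3160 loci that rose and 28.8% of the 3430 that fell in carbon dot roots were called in controls. In all 2290 members were called in controls and 6590 (30%) in carbon dot roots. The log2 fold changes of the 2 contrasts correlated at r = 0.83 across the 21971 loci, which are not independent replicates and whose same-numbered D4 libraries deviate together. Loci chosen for passing in the controls had the smaller fold change there in 868 of the 1219 that rose and 815 of the 1071 that fell.

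**Figure D5:**
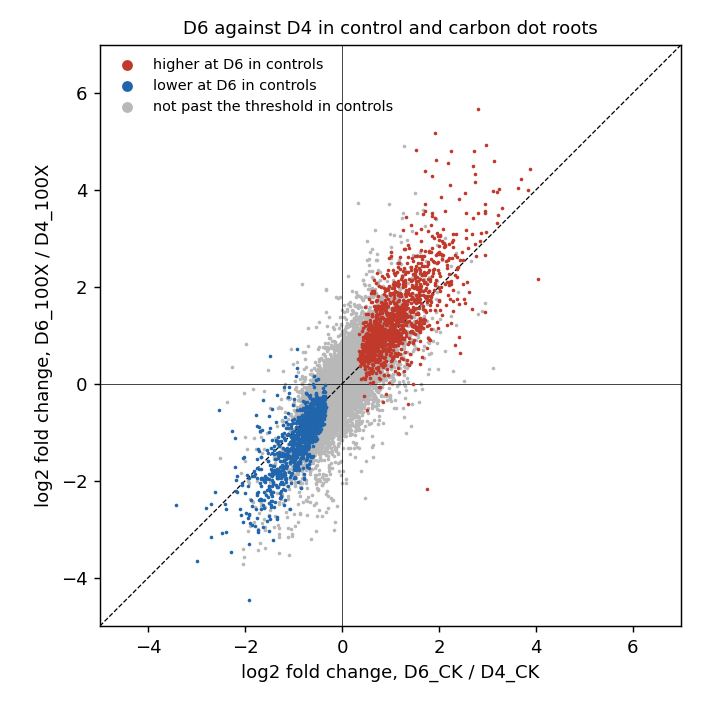
Log2 fold change of D6 over D4 in control roots (horizontal axis) and in carbon dot roots (vertical axis) for 21971 loci, with loci called in controls coloured and the dashed line marking equal change. Most coloured points lie in the fields where both changes have the same sign, 1211 of the 1219 that rose and 1064 of the 1071 that fell.

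Whether the change differed between control and carbon dot roots was tested as an interaction. Only 2 loci (0.0091%) passed limma's adjusted threshold, LOC_Os01g71350 and LOC_Os10g02509, with 2012 at an unadjusted p under 0.05. A replicate term within D4, where the same-numbered control and carbon dot libraries deviated together (r = 0.61), gave 98 calls and 3835 at an unadjusted p under 0.05, an alternative chosen after seeing the data. None of the named genes passed without that term. BC1 fell by 1.52 in controls and by 3.03 in carbon dot roots, HSP17.9A rose by 0.65 and 2.15, and CIN1 fell by 0.70 and 1.5, all on the log2 scale (unadjusted limma p of the difference 0.000412, 0.000147 and 0.00587). HKT1 rose by 3.2 in controls and 3.95 in carbon dot roots, NIP2-1 by 1.49 and 1.54, and NAS2 by 1.90 and 1.93. EXPB7 and AMT2-1 rose in controls by 0.81 and 0.74 and had 0.41 and 0.34 in carbon dot roots, where they did not pass (limma adjusted p = 0.0799 and 0.137).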

How the data were processed

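The authors deposited FPKM per locus. The tools named in the submitters' processing notes are featureCounts 1.6.4, HISAT2, fastp and SAMtools, while settings, annotation and genome build were not given in the sources used here. The FPKM steps gave whole numbers at all 34269 loci above 0 (within 0.005), and these numbers had the same distribution in all 8 libraries. Such values come from a normalization by rank that no source used here names. They are not reads, so no count test was run and no counting error is given. Loci with at least 1 FPKM in at least 2 of the 8 libraries (22794) were fitted with limma 3.58.1 in R 4.3.3 on log2(FPKM + 1), with 4 group means, eBayes with a trend, 4 residual degrees of freedom and Benjamini-Hochberg adjustment over all 22794 (threshold 0.05). The 21971 members are counted from it. Same-numbered D6_CK and D4_CK libraries did not deviate together (r = -0.07), so no block was used. Same-numbered D4_CK and D4_100X libraries did (r = 0.61). The main fit leaves this out, so the libraries that set its spread are not independent.

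The members and lists were chosen with earlier results of these data known, and 6 of 38 lists were drawn up with the table already open. The table gives LOC_Os identifiers only. Symbols of 392 listed loci were recalled and checked against RefSeq genes of assembly ASM3414082v1. The 301 symbols found on the same chromosome within 1 Mb of the place implied by neighbouring identifiers were kept (largest distance 0.35 Mb). This match is indirect, and the other loci stay in the counts unnamed. Named genes are those that passed, the 2 most abundant of each list, the 2 largest unnamed changes in each direction, and further list members chosen after their values were seen.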

Additional observations from a re-analysis of the deposited data

Results flagged for a closer look

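A test of the difference between the D6 against D4 changes in control and in carbon dot roots set 2 loci apart, both without a checked name. LOC_Os01g71350 had 7.04 and 9.13 FPKM in D6_CK and 1.27 and 1.44 FPKM in D4_CK, and 52.9 and 53.6 FPKM in D6_100X and 1.13 and 1.27 FPKM in D4_100X. It rose in both, by 1.94 in controls and 4.62 in carbon dot roots on the log2 scale, and the difference, control minus carbon dot, was -2.69 (limma adjusted p = 0.0397). LOC_Os10g02509 had 5.32 and 3.93 FPKM in D6_CK and 0.549 and 0.761 FPKM in D4_CK, whereas it had 0.803 and 0.423 FPKM in D6_100X and 5.54 and 6.97 FPKM in D4_100X. It rose by 1.76 in controls and fell by 2.17 in carbon dot roots, and the difference was 3.93 (limma adjusted p = 0.0397). In this locus 1 group of each sampling was below 1 FPKM, and the groups that were high differed between D6 and D4. No call of the difference remained when any 1 of the 8 libraries was left out.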

How the results depend on the processing

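The 2290 calls of D6_CK against D4_CK stayed within 1.5 times under a pseudocount of 0.1, a floor of 5 on the mean FPKM, robust eBayes and the replicate block (2575 calls). Median centring and quantile normalization gave 2288 and 2333, which says little, since the deposited values already share one distribution. They numbered 1277 with no filter (658 higher, 619 lower), 1366 with the 4 control libraries alone, 60 to 1407 without 1 control library, and, as alternatives chosen after seeing the data, 1125 to 2885 without 1 carbon dot library and 4741 with a replicate term within D4 only. The 2 calls of the interaction became 0 with a pseudocount of 0.1, with no filter, with that floor, under the replicate block and without any 1 library (0 to 0), and 98 with the replicate term within D4 only. Of 44 called genes followed, 24 were kept with no filter, 30 with the 4 control libraries alone, and 2, 13, 9 and 24 without D6_CK replicate 1, D6_CK replicate 2, D4_CK replicate 1 and D4_CK replicate 2. None turned direction. A fit with 1 library in a group assumes that it varies like the others. The planned voom alternative was not run, because the whole numbers behind the FPKM are not reads. The cause of these shifts was not tested. Depth, which is unknown, could not be weighed.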
